A study of Mus musculus with 10 samples.

Results

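The genes described here are the mouse zinc finger genes whose symbol is Zfp followed by digits only, without Zfp36, and whose newly made RNA reached at least 2 FPKM (fragments per kilobase of transcript, scaled to the size of the library) in J2E-KLF3-ER or in J2E cells. They were chosen by these pooled FPKM values, and 222 of 332 genes with such a symbol qualified, out of 23309 genes named in the RNA table. J2E-KLF3-ER is the immortalised fetal liver erythroid line J2E carrying the transcriptional repressor KLF3 fused to an estrogen receptor domain, which 4-hydroxytamoxifen activates. Clones A, C and E gave its 3 RNA libraries, all with 200 nM tamoxifen. J2E cells carry no transgene, and of their 3 RNA libraries the third received the ethanol vehicle and the others tamoxifen. New RNA was marked with 500 µM 4-thiouridine (4sU) for 30 minutes, so the values follow recent transcription more than stored RNA. Chromatin was taken after 3 hours of tamoxifen, for KLF3 from J2E-KLF3-ER clone C with an estrogen receptor antibody, and for KLF1 from clones A and C of K1-ER, a line of Klf1-null erythroblasts with an inducible KLF1-ER fusion. Chromatin was fixed in 0.4% formaldehyde, and each factor has 1 library made from 3 pooled immunoprecipitations, with its input.

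The mouse genes named Zfp mostly encode proteins with C2H2 zinc fingers, small folds that hold a zinc ion between cysteines and histidines and usually read DNA. The largest class adds a KRAB domain, which recruits the corepressor TRIM28 and, through it, the histone methyltransferase SETDB1 and HP1 proteins, and silences retroviral and other repeats. Such genes lie in tandem arrays that arose by duplication. Other members activate promoters, serve in chromatin complexes, bind RNA or act in ribosome and spindle biology, so the symbol joins proteins of unlike function. KLF1 and KLF3 are themselves zinc finger proteins of the Krüppel-like family and read CACCC elements, KLF1 mainly as an activator of erythroid genes.

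The RNA table gives 1 pooled value a line, so no spread between libraries can be set beside an FPKM value, the depth of each library is unknown, and the q-value is the authors' own. Every J2E-KLF3-ER RNA library comes from a clone with the transgene and no J2E library does, so clone and transgene cannot be told apart, nor, with no untreated J2E-KLF3-ER library, can activation of the fusion. The drug is shared by 5 of the 6 RNA libraries, and the vehicle library cannot be separated within the pooled J2E value. In these bulk samples, fewer cells of a kind and less RNA per cell cannot be told apart either. In the authors' deposited table Klf3 stood at 180 FPKM in J2E-KLF3-ER and 7.46 FPKM in J2E, in a row that holds resident and fusion transcripts together. Of 13 erythroid marker genes, 12 had a row and all 12 reached 2 FPKM, and 4 of them fell (Klf1, Epor, Slc4a1 and Ermap), beside 1.90% of all tested genes. Of 18 markers of other blood cells, 12 stayed under 1 FPKM, and none of the 4 tested was called. The highest of those 18 was Pf4, a platelet chemokine gene, at 92.4 FPKM in J2E-KLF3-ER and 80.1 FPKM in J2E in the authors' deposited table. The integrin gene Itga2b followed, and then Csf1r at 18.5 FPKM in J2E-KLF3-ER and 23.2 FPKM in J2E in the authors' deposited table. The summed level of the other-cell markers was 200 FPKM in J2E-KLF3-ER and 188 FPKM in J2E, and their part in any result below was not tested.

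Most Zfp genes were transcribed at modest and nearly equal levels in both lines. The median member had 9.25 FPKM in J2E-KLF3-ER and 9.16 FPKM in J2E, against 11.1 FPKM in each line for the 10653 genes that reached the same threshold. Of the 222, 108 stayed under 10 FPKM in both lines, 54 reached 20 FPKM and 7 reached 50 FPKM. The highest was Zfp655, at 135 FPKM in J2E-KLF3-ER and 172 FPKM in J2E in the authors' deposited table. Zfp207, whose protein (BuGZ) brings the checkpoint protein BUB3 to kinetochores, followed with 140 FPKM in J2E-KLF3-ER and 136 FPKM in J2E, and Zfp146 with 120 and 111 FPKM in the same order, all in the authors' deposited table. These 3 genes stood well above the rest. The next were Zfp488 (76.7 FPKM in J2E-KLF3-ER and 78.9 FPKM in J2E) and Zfp828, known as Champ1 and needed for the attachment of chromosomes to the spindle (65.1 and 61.8 FPKM), in the authors' deposited table. Zfp445, a KRAB gene that maintains imprinted methylation, had 59.0 FPKM in J2E-KLF3-ER and 57.8 FPKM in J2E in the authors' deposited table. Zfp646 and Zfp110 closed the group of 8 with 52.1 and 49.8 FPKM in J2E-KLF3-ER, and 45.8 and 48.8 FPKM in J2E, in the authors' deposited table. At the other end, Zfp422 (2.03 FPKM in J2E-KLF3-ER and 2.01 FPKM in J2E), Zfp931 (1.25 and 2.06 FPKM) and Zfp750 (2.08 and 1.16 FPKM) lay just inside the threshold, in the authors' deposited table. Zfp772 (1.99 FPKM in J2E-KLF3-ER and 1.64 FPKM in J2E), Zfp595 (1.26 and 1.86 FPKM) and Zfp358 (1.82 and 1.66 FPKM) lay just outside it.

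**Figure D1:**
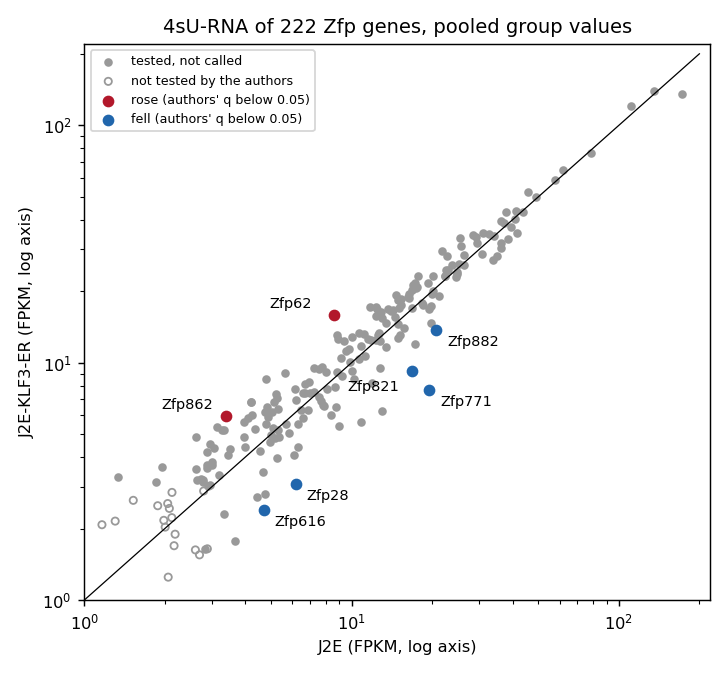
Pooled 4sU-RNA level of 222 Zfp genes in J2E-KLF3-ER (vertical, FPKM, log axis) against J2E (horizontal, FPKM, log axis), 1 point a gene, with the line of equal level. Most points lie near the line, and the 7 genes called by the authors' q are named.

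The comparison of the lines asked which of these genes differ in output between J2E-KLF3-ER and J2E. The authors tested 205 of the 222; the other 17 had at most 2.89 FPKM in either line, and every Zfp gene that was tested is a member. At the authors' q below 0.05, 5 members fell, 2 rose and 198 were not called, which is 3.41% of those tested, beside 2.72% of all 9619 tested genes (0.821% rising and 1.90% falling). Since the values that chose the members belong to the same comparison, these counts are a description, and nothing is read from them. In size, 165 of 205 members (80.5%) changed by less than 0.5 on the log2 scale, beside 82.3% of all tested genes. Only 5 (2.44%) reached a change of 1 on that scale, beside 4.17% of all tested genes. The median log2 fold change of the tested members was 0.11, with quartiles of -0.09 and 0.30, beside a median of 0.03 for all tested genes. Values above 0 were found for 130 members and below 0 for 75, that is 63.4% above 0, beside 53.4% of all tested genes.

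Zfp771, a C2H2 gene on chromosome 7 at 134388040 to 134398315 (mm9), fell furthest. It had 7.70 FPKM in J2E-KLF3-ER and 19.6 FPKM in J2E, a log2 fold change of -1.34 (authors' q = 0.00408, authors' deposited table). Zfp28, a KRAB gene on chromosome 7 at 6336028 to 6349347, had 3.09 FPKM in J2E-KLF3-ER and 6.19 FPKM in J2E, a log2 fold change of -1.0 (authors' q = 0.00707, authors' deposited table). Zfp616, on chromosome 11 at 73883672 to 73900803, had 2.40 FPKM in J2E-KLF3-ER and 4.70 FPKM in J2E, a log2 fold change of -0.97 (authors' q = 0.0213, authors' deposited table). Zfp28 and Zfp616 lay below the member median in both lines, and Zfp771 below it in J2E-KLF3-ER alone. Zfp821, on chromosome 8 at 112229449 to 112248832, had 9.24 FPKM in J2E-KLF3-ER and 16.9 FPKM in J2E, a log2 fold change of -0.87 (authors' q = 0.00995, authors' deposited table). Zfp882, on chromosome 8 at 74432505 to 74442750, had 13.8 FPKM in J2E-KLF3-ER and 20.8 FPKM in J2E, a log2 fold change of -0.59 (authors' q = 0.0287, authors' deposited table). The rising pair were Zfp62 and Zfp862. Zfp62, on chromosome 11 at 49017002 to 49032318, had 15.9 FPKM in J2E-KLF3-ER and 8.61 FPKM in J2E, a log2 fold change of 0.88 (authors' q = 0.00408, authors' deposited table). This q, shared with Zfp771, is the smallest the authors gave to any gene, so it does not rank Zfp62 against Zfp771. Zfp862, on chromosome 6 at 48454338 to 48484831, had 5.94 FPKM in J2E-KLF3-ER and 3.39 FPKM in J2E, a log2 fold change of 0.81 (authors' q = 0.0168, authors' deposited table).

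**Figure D2:**
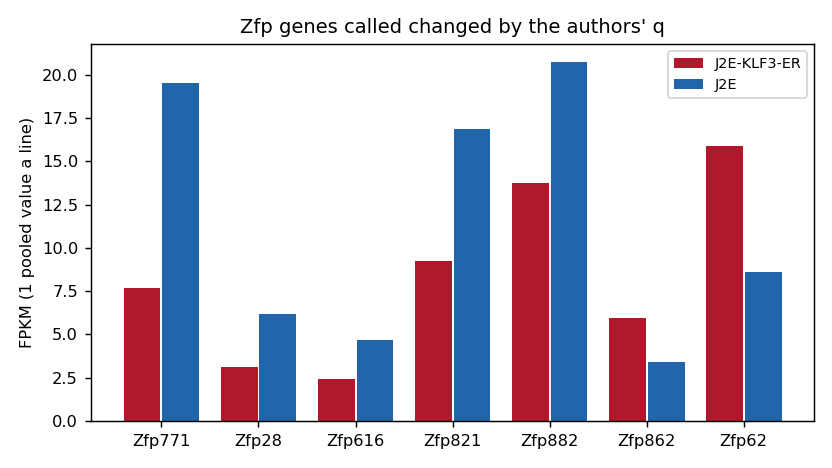
Pooled FPKM of the 7 Zfp genes called by the authors' q, in J2E-KLF3-ER (left bar) and J2E (right bar), in order of log2 fold change from Zfp771 at -1.34 to Zfp62 at 0.88. Bars are single pooled values and carry no error.

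Some members not called had values as large. Zfp523, a relative of the promoter activator gene Zfp143, had the highest log2 fold change of any tested member at 1.30, with 3.29 FPKM in J2E-KLF3-ER and 1.33 FPKM in J2E (authors' q = 0.0721, authors' deposited table). Zfp420 (log2 fold change 0.90), Zfp960 (0.88) and Zfp652 (0.83) came next among those not called, with authors' q of 0.118, 0.196 and 0.0711 in the authors' deposited table. Downward, Zfp688, in the same array as Zfp771, stood at -1.06 (6.24 FPKM in J2E-KLF3-ER and 13.0 FPKM in J2E, authors' q = 0.0676, authors' deposited table). Zfp9 stood at -1.04 and Zfp296, studied as a factor of pluripotent cells, at -0.95, with authors' q of 0.0553 and 0.0695 in the authors' deposited table. A q that misses the threshold does not show that these levels were equal.

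Promoter sequences are shown for the called genes that have an entry in RefSeq's promoter windows (build GRCm38.p6), since 4 of them carry KLF peaks and 2 do not; Zfp862 is named only. Each window runs from 250 bases before to 50 bases after a start site, 5′ to 3′ on the gene's strand, and of several windows the one furthest upstream is given. Capitals mark CACCC, or GGGTG where the element lies on the other strand. The first 3 genes fell and have a KLF3 peak near the start site, Zfp62 rose and has peaks of both factors, and Zfp616 and Zfp882 fell with no peak assigned. The windows lie at chr7:6383068-6383367 (Zfp28), chr7:127244276-127244575 (Zfp771), chr8:109705258-109705557 (Zfp821), chr11:49203042-49203341 (Zfp62), chr11:74060647-74060946 (Zfp616) and chr8:71908356-71908655 (Zfp882), all on the plus strand.
Zfp28: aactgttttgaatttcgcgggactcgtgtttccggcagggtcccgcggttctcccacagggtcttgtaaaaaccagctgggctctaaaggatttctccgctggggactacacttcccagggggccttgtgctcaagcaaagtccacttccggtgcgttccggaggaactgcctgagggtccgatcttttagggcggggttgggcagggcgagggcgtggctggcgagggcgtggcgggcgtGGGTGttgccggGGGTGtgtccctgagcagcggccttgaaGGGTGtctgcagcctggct
Zfp771: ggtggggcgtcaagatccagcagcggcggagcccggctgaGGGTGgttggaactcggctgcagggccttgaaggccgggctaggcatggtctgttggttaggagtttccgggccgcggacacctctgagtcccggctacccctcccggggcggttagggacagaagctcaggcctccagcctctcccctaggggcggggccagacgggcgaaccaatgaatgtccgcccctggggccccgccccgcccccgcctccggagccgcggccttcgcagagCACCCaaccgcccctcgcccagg
Zfp821: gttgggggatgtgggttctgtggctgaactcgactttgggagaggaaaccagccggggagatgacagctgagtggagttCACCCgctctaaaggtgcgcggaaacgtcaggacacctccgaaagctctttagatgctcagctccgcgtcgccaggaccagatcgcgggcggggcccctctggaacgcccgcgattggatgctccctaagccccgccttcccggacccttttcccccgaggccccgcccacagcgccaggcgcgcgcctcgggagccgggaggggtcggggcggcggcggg
Zfp62: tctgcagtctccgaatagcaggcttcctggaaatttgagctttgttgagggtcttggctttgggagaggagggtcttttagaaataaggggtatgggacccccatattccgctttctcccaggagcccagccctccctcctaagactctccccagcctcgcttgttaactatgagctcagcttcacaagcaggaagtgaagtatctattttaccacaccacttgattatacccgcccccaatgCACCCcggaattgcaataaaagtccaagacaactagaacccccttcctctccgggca
Zfp616: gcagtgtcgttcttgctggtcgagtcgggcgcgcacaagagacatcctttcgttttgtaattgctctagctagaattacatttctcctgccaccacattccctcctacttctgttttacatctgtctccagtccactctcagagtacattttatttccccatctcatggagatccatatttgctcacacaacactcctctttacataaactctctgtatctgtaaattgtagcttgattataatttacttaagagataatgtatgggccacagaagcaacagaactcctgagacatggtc
Zfp882: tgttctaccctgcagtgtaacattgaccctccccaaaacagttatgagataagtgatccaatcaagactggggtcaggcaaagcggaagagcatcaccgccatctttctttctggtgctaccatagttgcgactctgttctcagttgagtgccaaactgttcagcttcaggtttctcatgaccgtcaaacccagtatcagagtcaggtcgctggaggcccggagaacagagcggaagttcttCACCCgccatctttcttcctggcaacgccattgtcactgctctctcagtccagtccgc

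The Zfp28 window holds 3 CACCC elements, all on the minus strand and within 35 bases of the start site, at offsets -9, 3 and 31 (the first base of each, counted from 0 at the first base after the 250). It also holds 5 matches of the wider Krüppel-like pattern CCNCNCCC, with first bases from -60 to -15. The list of KLF3 peaks puts a summit 34 bp upstream of the Zfp28 start site on mm9, and the KLF1 list puts one 19 bp upstream, within the stretch that holds these matches if both builds use the same start site. Zfp771 has 2 CACCC and 7 CCNCNCCC matches in a window of 71.7% G and C, and Zfp821 has 1 and 4. Zfp62 has 1 and 2. On mm9 the KLF3 and KLF1 summits of Zfp62 lie 143 and 152 bp downstream of the start site. If both builds use the same start site, neither summit is in the window shown. Zfp616 has no match of either pattern in a window of 42.3% G and C, and Zfp882 has 1 CACCC and no CCNCNCCC. Patterns were searched on both strands, overlapping matches were counted, and the patterns can overlap each other; a match describes letters and is not a binding site.

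Over the members, 182 of 222 matched an entry, with 226 windows. CACCC was in 56.2% of member windows, beside 57.5% of all 32851 windows in the table, and CCNCNCCC in 59.3% beside 49.5%. The 32851 windows were not limited to genes at 2 FPKM. Median G and C content was 56.7% in member windows and 52.7% in all windows, and its part was not tested. Members with a KLF3 peak within 1 kb of the start site had CACCC in 70.2% of 57 windows and CCNCNCCC in 82.5%. Members without a KLF3 peak had them in 50.9% and 52.1% of 163 windows. The median G and C content moved with this, at 62.7% in the windows with a KLF3 peak and 54.3% in those without, and its part was not tested.

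The peak lists show where each factor was bound near these genes, by the nearest start site as the authors assigned it. KLF1 peaks come from K1-ER cells and KLF3 peaks from J2E-KLF3-ER cells. KLF1 binding was not measured in the lines whose RNA is compared, so peaks of both factors do not show binding in the same cells. KLF3 peaks were assigned to 57 of the 222 members (25.7%), beside 31.0% of all genes at the same FPKM threshold. KLF1 peaks were assigned to 29 (13.1%, beside 18.6%), and both to 15 (6.76%, beside 12.6%). Within 1 kb of the start site, 53 members had a KLF3 summit (23.9%, beside 27.7% of all genes at the threshold) and 15 a KLF1 summit (6.76%, beside 10.4%). No peak of either list was assigned to 151 members (68.0%). Each list comes from 1 library, so these shares describe the lists and have no replicate error. Of the 57 members with KLF3, 26.3% also had KLF1, and of the 29 with KLF1, 51.7% also had KLF3; over all genes at the threshold the same shares were 40.5% and 67.6%.

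KLF3 peaks at Zfp genes sat close to start sites. Of 64 peaks, 60 (93.8%) had their summit within 1 kb, beside 84.2% for all genes at the threshold, and the median distance was 116 bp beside 152 bp. Of those 60, 38 lay upstream of the start site. The authors' annotation class was promoter for 44 peaks, intron for 13, distal for 3, intergenic for 1 and untranslated region for 3. KLF1 peaks at Zfp genes were more spread: 16 of 37 (43.2%) lay within 1 kb, beside 45.8% for all genes at the threshold. The median distance was 4956 bp beside 1607 bp. Zfp217 alone held 6 of the 37 peaks, with summits 15.8, 41.6, 49.6, 59.3 and 63.0 kb away among them. The median thus leans on that gene and is not a trait of the family. The classes of the 37 KLF1 peaks were promoter for 12, intron for 14, distal for 9 and intergenic for 2. In the KLF3 list 14 of the 64 peaks (21.9%) shared 1 bp or more with a KLF1 peak, beside 33.5% for all genes at the threshold. Median enrichment at Zfp genes was 8.21 for KLF3 and 7.93 for KLF1, beside 8.01 and 9.82 for all genes at the threshold. Enrichment is the authors' ratio for each peak and is compared only within a list.

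**Figure D3:**
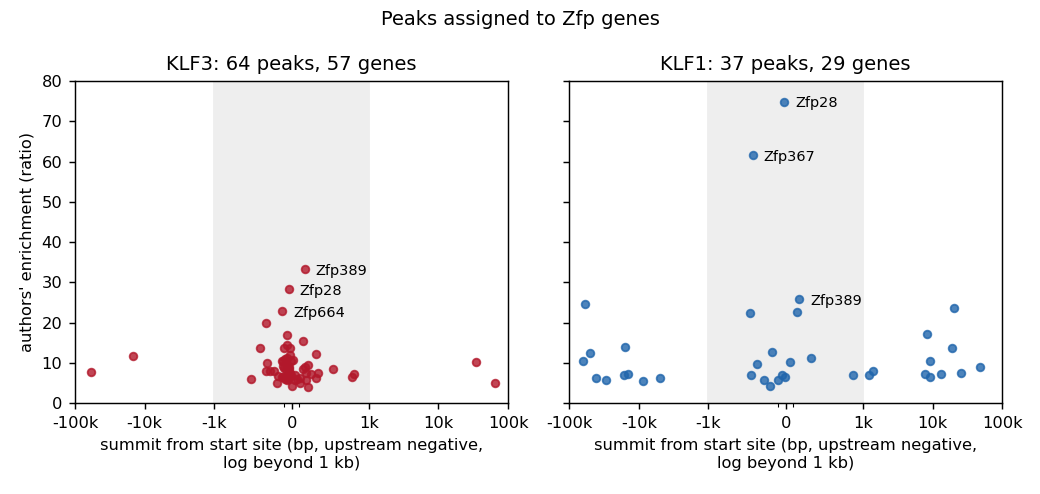
Authors' enrichment ratio (vertical) of each peak assigned to a Zfp gene, by distance of the summit from the start site (horizontal, upstream negative, linear within 1 kb and log beyond), for KLF3 (left, 64 peaks) and KLF1 (right, 37 peaks). The grey band marks 1 kb on either side, which holds 60 KLF3 and 16 KLF1 summits; the 3 highest peaks of each list are named.

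The highest KLF3 peak of the group was at Zfp389 (mm9 chr13:21598056-21598401, enrichment 33.3, rank 13 of 4579), with its summit 169 bp downstream of the start site. A KLF1 peak of enrichment 25.9 overlapped it. Zfp389 RNA stood at 5.21 FPKM in J2E-KLF3-ER and 5.29 FPKM in J2E in the authors' deposited table. Zfp28 came next, with a KLF3 peak at chr7:6335814-6336208 (28.3, rank 40) and the third highest KLF1 peak of the whole list at chr7:6335739-6336252 (74.9). Zfp664 had a KLF3 peak of 22.9 (rank 127) at 122 bp upstream and a KLF1 peak of 12.6, with RNA at 27.1 FPKM in J2E-KLF3-ER and 33.8 FPKM in J2E in the authors' deposited table. Zfp367, whose human counterpart was described as an erythroid factor (ZFF29), had KLF3 peaks of 20.03 and 6.53 and a KLF1 peak of 61.5 (rank 9) at chr13:64254518-64255260. Its RNA was 38.9 FPKM in J2E-KLF3-ER and 37.1 FPKM in J2E, with a log2 fold change of 0.07 (authors' deposited table). Zfp7 had a KLF3 peak of 16.9 and a KLF1 peak of 7.13, and 13.3 FPKM in J2E-KLF3-ER and 12.7 FPKM in J2E in the authors' deposited table. At Zfp62 both peaks lay just downstream of the start site, KLF3 at 143 bp (15.5) and KLF1 at 152 bp (22.7). Of these 6 genes with the highest KLF3 peaks, Zfp28 fell, Zfp62 rose and the other 4 were not called.

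Among the 7 called genes, 3 of the 5 that fell had a KLF3 peak at any distance. Over all genes that fell, 92 of 183 (50.3%) had one. The 3 Zfp genes were Zfp771 (chr7:134387818-134388084, enrichment 10.9, 89 bp upstream), Zfp821 (chr8:112229249-112229537, 6.12, 85 bp upstream) and Zfp28 (34 bp upstream). Of the 3 Zfp genes, Zfp28 alone had a KLF1 peak too. Zfp616, Zfp882 and Zfp862 had no peak in either list. Of the 2 rising genes, Zfp62 had peaks of both.

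Zfp217, a component of corepressor complexes with CoREST and an oncogene in human breast cancer, had the most KLF1 peaks. It was assigned 6, from 370 bp to 63.0 kb upstream of its start site, and no other member had more than 2. Their enrichment ran from 6.35 to 24.5, the highest being 59.3 kb upstream at chr2:170027214-170027612, where the only KLF3 peak of Zfp217 (7.74) overlapped it. The RNA of Zfp217 was 25.8 FPKM in J2E-KLF3-ER and 23.8 FPKM in J2E, a log2 fold change of 0.11 (authors' q = 0.812, authors' deposited table). Zfp395, which the authors did not test, had 1.63 FPKM in J2E-KLF3-ER and 2.60 FPKM in J2E in the authors' deposited table, with KLF1 peaks 20.1 kb downstream (23.7) and 16.4 kb upstream (6.91) of the start site and a KLF3 peak 14.9 kb upstream (11.8).

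By bound factor, the 137 tested members with no peak had a median log2 fold change of 0.18, with 98 above 0 and 39 below. The 40 with KLF3 alone had a median of 0.03 (21 above 0 and 19 below). The 14 with both factors had a median of -0.09 (6 above and 8 below), and the 14 with KLF1 alone a median of -0.08 (5 above and 9 below). Among all tested genes the same classes had medians of 0.05 with no peak, 0.02 with KLF3 alone, -0.08 with both and 0.02 with KLF1 alone. In J2E-KLF3-ER the median level was 9.18 FPKM without a peak, 10.3 FPKM with KLF3 alone, 7.22 FPKM with KLF1 alone and 13.3 FPKM with both; in J2E it was 8.80, 12.9, 9.26 and 8.61 FPKM in the same classes. These are medians taken in each line over all members of a class, so the middle gene can differ between lines. Calls were 1 rising and 1 falling gene with both factors, 2 falling with KLF3 alone, none with KLF1 alone, and 1 rising and 2 falling without a peak. That is 14.3% of tested members called with both factors, 5.0% with KLF3 alone and 2.19% without a peak, beside 5.35%, 2.21% and 2.29% of all tested genes in those classes and 3.1% of all tested genes with KLF1 alone. These medians were not tested, since the members were chosen by the same RNA values.

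**Figure D4:**
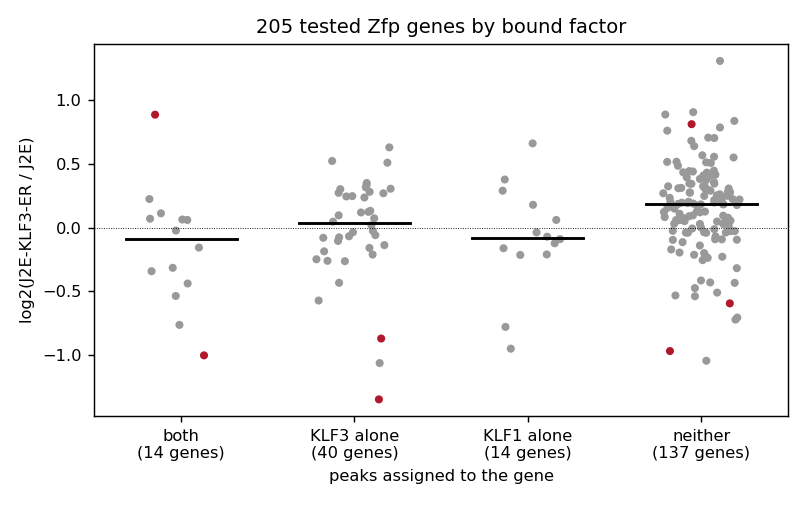
log2 fold change of J2E-KLF3-ER over J2E (vertical, authors' value) for 205 tested Zfp genes grouped by the peaks assigned to them, 1 point a gene, red where the authors' q is below 0.05, with black bars at the medians of -0.09, 0.03, -0.08 and 0.18 from left to right. The class with no peak has the highest median, and the classes overlap over most of their range.

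The KLF1 list also names, for each peak, the nearest gene that the authors label up or down in their K1vsK1ER comparison of Klf1-null and KLF1-ER cells. The header does not say which line is the numerator, and genes near no KLF1 peak can be missing. The label up fell on 5 members (2.25%, beside 4.10% of all genes at the threshold) and the label down on 2 (0.901%, beside 0.948%). The 5 were Zfp28, Zfp821, Zfp296, Zfp367 and Zfp703, a gene of the NLZ family. In J2E-KLF3-ER against J2E, Zfp28 and Zfp821 fell, Zfp296 and Zfp703 stood at -0.95 and -0.78 without being called, and Zfp367 stood at 0.07 (log2 fold changes, authors' deposited table). The 2 labelled down, Zfp386 and Zfp865, stood at 0.06 and -0.04 (log2 fold changes, authors' deposited table). Over all 400 tested genes with the label up, 273 were below 0 and the median log2 fold change was -0.19; over the 92 labelled down, the median was 0.14 and 61 were above 0.

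By role, the RNA-binding, ribosome and spindle members had 12 genes with a row, all of which reached 2 FPKM and were tested. Of these, 0 of 12 were called, beside 2.72% of all tested genes. At that share a small set can hold no called gene, so nothing is read from such a 0, here or in the sets below. The log2 fold changes of the 12 ran from -0.25 to 0.40. Their median was 0.22, beside 0.11 for the members and 0.03 for all tested genes. Of the 12, 10 were above 0 and 2 below, beside 63.4% above 0 for the members and 53.4% for all tested genes. Zfp106, an RNA-binding protein gene, had the highest log2 fold change of the 12 at 0.40. It had 33.6 FPKM in J2E-KLF3-ER and 25.4 FPKM in J2E (authors' q = 0.144, authors' deposited table). Zfp598, the ubiquitin ligase that marks collided ribosomes, had 17.0 FPKM in J2E-KLF3-ER and 15.0 FPKM in J2E, and Zfp622, whose yeast counterpart helps mature the large ribosomal subunit, had 11.2 and 9.54 FPKM, in the authors' deposited table. Zfp593, whose yeast counterpart acts in ribosome export, had 16.4 FPKM in J2E-KLF3-ER and 12.9 FPKM in J2E in the authors' deposited table, with a KLF3 peak of 13.8 at 21 bp upstream. KLF3 peaks were assigned to 5 of these 12, beside 25.7% of the members and 31.0% of all genes at the threshold. A KLF1 peak was assigned to 1 of the 12, beside 13.1% of the members and 18.6% of all genes at the threshold.

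Of 31 promoter-binding and chromatin factors with a row, 26 reached 2 FPKM and 25 were tested. None of the 25 was called, beside 2.72% of all tested genes. Of the 25, 18 were above 0 and 7 below, beside 53.4% above 0 among all tested genes. Their median log2 fold change was 0.10, beside 0.03 for all tested genes. Zfp143, an activator at many start sites, had 16.5 FPKM in J2E-KLF3-ER and 14.1 FPKM in J2E in the authors' deposited table, with 2 KLF3 peaks and 1 KLF1 peak. Zfp410, which activates the chromatin remodeller gene Chd4 and thereby keeps fetal globin low in human adult erythroid cells, had 19.0 FPKM in J2E-KLF3-ER and 16.2 FPKM in J2E in the authors' deposited table, with no peak. Chd4 itself had 78.6 FPKM in J2E-KLF3-ER and 67.6 FPKM in J2E, a log2 fold change of 0.22 (authors' q = 0.519, authors' deposited table). Zfp148, whose protein (ZBP-89) takes part in erythroid gene control, had 12.5 FPKM in J2E-KLF3-ER and 12.4 FPKM in J2E, and its relative Zfp281 had 18.4 and 14.9 FPKM, in the authors' deposited table. Zfp281 had a KLF3 promoter peak of 13.8. Zfp335, a gene of trithorax-type complexes, had 28.5 FPKM in J2E-KLF3-ER and 26.3 FPKM in J2E in the authors' deposited table, with a KLF3 peak of 10.5. Zfp644, which recruits the G9a methyltransferases, had 37.2 FPKM in J2E-KLF3-ER and 39.6 FPKM in J2E in the authors' deposited table.

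Silencers of repeats and imprinted loci numbered 7 at the threshold, of which 6 were tested, all with a log2 fold change above 0 (median 0.26) and none called, beside 53.4% above 0 among all tested genes. Zfp809, which silences murine leukaemia virus, had 34.6 FPKM in J2E-KLF3-ER and 28.5 FPKM in J2E (log2 fold change 0.28, authors' q = 0.534, authors' deposited table). Zfp568 had 31.9 FPKM in J2E-KLF3-ER and 29.4 FPKM in J2E, and Zfp932, a silencer of endogenous retroviruses, had 13.1 and 11.1 FPKM, in the authors' deposited table. No KLF3 or KLF1 peak was assigned to any of these 7 genes, beside 31.0% of all genes at the threshold with KLF3 and 18.6% with KLF1. The corepressor machinery that KRAB proteins use held no called gene: of 39 genes, 38 had a row and 37 reached 2 FPKM and were tested. Of the 37, 0 were called, beside 2.72% of all tested genes, and the median log2 fold change was 0.04. Trim28 had 67.7 FPKM in J2E-KLF3-ER and 60.6 FPKM in J2E, and Setdb1 had 36.8 and 37.9 FPKM, in the authors' deposited table.

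The genes were unevenly placed: chromosome 7 held 61 of the 222, chromosome 17 held 24 and chromosome 8 held 18. With members called neighbours where their loci lay within 100 kb, 100 members fell into 27 arrays of 2 or more. The largest held 12 members at chr7:30553571-30954746, where Zfp146 had the highest level in both lines, and 7 of the 12 had a log2 fold change above 0. KLF3 peaks were assigned to 25 of 100 members in arrays and to 32 of 122 outside (26.2%). KLF1 peaks were assigned to 7 of 100 members in arrays and to 22 of 122 outside. At chr9:20149580-20399637, 4 of 5 members (Zfp560, Zfp26, Zfp266 and Zfp846) had a KLF3 peak. Of the 6 members at chr17:32902442-33170326 none had one, nor had any of the 6 at chr7:24866963-25101685. Of all genes at the threshold, 31.0% had one. These arrays were picked from the 27 with their values known, and differences between arrays were not tested. Zinc finger genes in arrays often have near-identical copies, between which the authors' counting could split reads, so values of array members are uncertain to that extent. How alike these copies are was not tested.

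The median log2 fold change of Zfp genes was 0.31 on chromosome 17 (15 of 21 tested above 0), beside 0.10 for all 522 tested genes there. Of the 24 chromosome 17 members, 21 were tested and none was called, beside 2.72% of all tested genes. On chromosome 9 the Zfp median was 0.19 (10 of 13 above 0), beside -0.04 for all tested genes, and on chromosome 7 it was 0.04 (31 of 58), beside 0.00. On chromosome 13 the Zfp median of 0.21 lay beside 0.22 for all tested genes. The array at chr7:134376957-134592672 had 5 of its 6 tested members below 0, Zfp771 and Zfp688 among them. With values centred on the median of their own chromosome, the member median was 0.09.

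**Figure D5:**
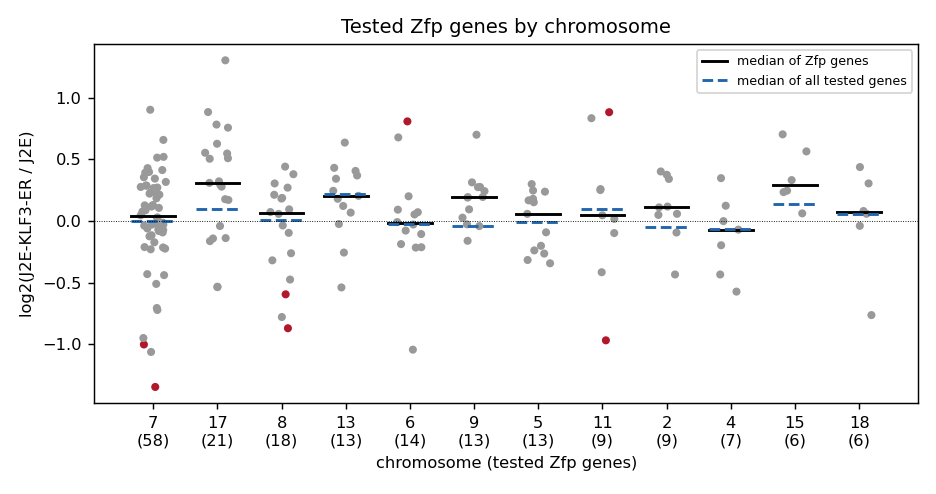
log2 fold change of J2E-KLF3-ER over J2E (vertical) for tested Zfp genes on the 12 chromosomes with at least 6 of them (horizontal, number of genes below), red where the authors' q is below 0.05. Black bars are medians of the Zfp genes and dashed blue bars medians of all tested genes of that chromosome; on chromosome 17 they stand at 0.31 and 0.10.

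The nearest families by name, Zbtb, Zscan and Zkscan genes, whose proteins join C2H2 fingers to a BTB or SCAN domain, had 43 genes at the threshold, all tested. None rose and 2 fell (4.65% called), beside 0.821% rising and 1.90% falling among all tested genes. Their median log2 fold change was 0.04, with 53.5% above 0, beside 0.11 and 63.4% for the Zfp genes. KLF3 peaks were assigned to 8 of the 43 (18.6%) and KLF1 peaks to 6. No test of these differences was made.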

How the data were processed

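RNA was read as 1 table and binding as 2 peak lists. Per the file headers, the authors gave pooled FPKM values for each line, a log2 fold change (J2E-KLF3-ER over J2E, no pseudocount) and their own p-value and q-value. TopHat2 2.0.10, MACS 1.4.2, MACS2 and build mm9 are named per the submitters' processing notes, while their roles, the quantifier and the normalization were not given in the sources used here. For each peak, the deposited lists hold a fold enrichment (a ratio), a summit and the nearest start site. The deposited distance equals start site minus summit along the genome for 90.7% of KLF3 and 87.8% of KLF1 peaks, so its sign was turned to run with transcription. The 93 blank rows were dropped, and 0 per-sample columns were left unused.

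No test was run here. A gene is called changed at the authors' q below 0.05, over all 9619 genes they tested; per-sample tests in the design could not be made, nor could counts of fingers and KRAB boxes, as no protein table was used. The spread behind the authors' q-values includes differences between 3 clones of J2E-KLF3-ER and between drug and vehicle in J2E; whether both drug-treated J2E libraries are separate cultures is not stated in the labels. Members, lists and the 100 kb limit for arrays were chosen with earlier results of these data known. Named genes are the called members, the 8 highest, the 6 largest changes each way, the 6 most highly bound by each factor, the role lists Trim28 and Setdb1, and the 3 genes on each side of the threshold. Of the role lists, values are printed for some members and counts for all. Other named genes (those with K1vsK1ER labels, array members, Chd4 and markers) were chosen after their values were seen. Promoter windows are RefSeq's, GRCm38.p6. Overlap and pattern searches were checked on simulated data. Python 3.11.15, pandas 2.3.3, NumPy 2.4.6 and matplotlib 3.10.9 were used.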

Additional observations from a re-analysis of the deposited data

How the results depend on the processing

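The number of members stayed between 172 and 246 when the FPKM threshold was set at 1 or 5, put on the lower of the lines, or when symbols with letters after the digits were added. The 7 called members became 13 at the authors' q below 0.1 and 4 at below 0.01, and 7 or 6 at the other FPKM thresholds. The median log2 fold change of members lay between 0.09 and 0.11 under pseudocounts of 0.1 and 1, both centrings and both stricter thresholds. Members with a KLF3 peak numbered 53 within 1 kb and 20 at an enrichment of at least 10, against 57 over all peaks. Members with a KLF1 peak numbered 15 within 1 kb, 18 within 5 kb and 13 at an enrichment of at least 10, against 29 over all peaks. Members with both factors numbered between 11 and 12 under the overlap and distance rules, against 15. Of 66 named genes, 2 changed sign when centred on all tested genes and 4 when centred on their chromosome. None of these was called. With a pseudocount of 1, 15 of the 66 moved by at least 0.1 on the log2 scale, and with chromosome centring 23 did. The called Zfp771, Zfp28, Zfp616 and Zfp862 were among the 15, at -1.24, -0.81, -0.74 and 0.66 with the pseudocount. The called Zfp821, Zfp882 and Zfp62 moved by less with it. Pooled values allow no replicate to be left out. No paired analysis was possible because the RNA columns are pooled values and carry no replicate numbers.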
